A study of Mus musculus with 9 samples.

Results

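The 5 kainate receptor genes (Grik1 to Grik5) and the delta receptor gene Grid1 were followed across 9 libraries of nuclear RNA from mouse hippocampal pyramidal cells. The 6 genes were taken by symbol from a deposited table of 31051 named genes, a rule that uses no measured value. Cells had been watched by in vivo imaging while mice navigated, classed by their activity and phototagged. Place cells are active when the animal is at a certain spot, and silent cells are those with little or no such activity. Nuclei were then isolated and amplified with the SMART-Seq mRNA LP kit for small inputs. There were 5 place and 4 silent libraries, all with the genotype label WT. The labels give no age, sex, number of nuclei per library or tagging construct. Each title carries its own mouse label, so the libraries were taken as separate animals, and p-values measure the spread between them.

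Kainate receptors are glutamate-gated ion channels built from subunits that assemble in groups. GluK1, GluK2 and GluK3, from Grik1, Grik2 and Grik3, can form channels by themselves, while GluK4 and GluK5, from Grik4 and Grik5, bind the agonist kainate more tightly and need one of the former to reach the surface. In the hippocampus these receptors are known from mossy fibre synapses on CA3 cells, from interneurons, and from control of excitability in pyramidal cells. GluD1, from Grid1, resembles these channels in sequence but is not opened by glutamate in the usual way, and bridges to presynaptic neurexins through secreted cerebellins.

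Levels are given in RPM, recovered reads per 1000000 reads of a library scaled to a common depth, and comparisons between genes use RPM per kilobase of annotated exon. Libraries held 15.2 to 21.8 times 1000000 recovered reads in the place group and 13.9 to 22.1 times 1000000 in the silent group. Genes detected ran from 16612 to 20989 and from 14175 to 17898, the fewest in silent replicate 1. The 7 general excitatory neuron markers summed to 1832.5 to 2597 RPM in place and 2064 to 2800 in silent libraries, and at least 6 were detected in each library. Markers of other cells were also present. Oligodendrocyte markers (10 of 11 summed) stood at 1512, 2057, 3508, 320 and 203 RPM in place replicates 1 to 5 and at 117 to 588 RPM in silent libraries. Astrocyte markers (7 of 9 summed) stood at 2471 RPM in place replicate 3, at 174 to 284 in the other place libraries and at 190 to 528 in silent ones. The part of glial RNA in the levels that follow was not tested. Y-linked transcripts (3 genes summed) exceeded 10 RPM in all 4 silent libraries and in place replicate 1 alone of the 5 place libraries. Sex and group are thus nearly aligned, and with 1 place library of that kind their parts cannot be told apart.

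Grik5 and Grik2 were the main transcripts of the family, and they were the steadiest. Both had reads in all 9 libraries. Per kilobase, Grik5 was the highest of the 6 genes in 9 of 9 libraries, at 29.7 ± 10.4 RPM per kilobase in the 5 place libraries (mean ± SD) and 34.1 ± 8.05 in the 4 silent ones. Grik2 was at 8.13 ± 2.58 and 10.7 ± 4.68 RPM per kilobase, the second highest in 6 libraries and the third in 3. Grik5 exceeded Grik2 by 1.71 to 6.65 times per kilobase. With the longest single transcript as length in place of all exons, Grik5 was again highest in 9 of 9 libraries and the ratio ran from 1.55 to 6.02. Of the summed Grik level per kilobase, Grik2 and Grik5 together made up 77.2% to 99.8%.

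The other members were low, and Grik1 and Grik3 were uneven. Grik4 and Grid1 varied about as much as a typical tested gene. Their SDs of log2 levels within groups were 1.29 and 1.23, against a median of 1.12. Of tested genes, 57.0% and 54.5% were at or below those values. Grid1 averaged 3.18 ± 1.87 RPM per kilobase in place and 1.17 ± 0.778 in silent libraries, Grik1 2.98 ± 4.60 and 1.83 ± 3.64, Grik4 2.40 ± 1.16 and 1.73 ± 1.495, and Grik3 1.26 ± 1.005 and 0.793 ± 1.49. The spreads of these 4 genes overlapped. Within libraries Grik4 lay above Grik3 in 8 of 9, above Grik1 in 7 and above Grid1 in 6. Grid1 was second highest in place replicate 1, Grik1 in place replicate 5 and silent replicate 2, and each of them was at or near the bottom of the order in other libraries.

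**Figure D1:**
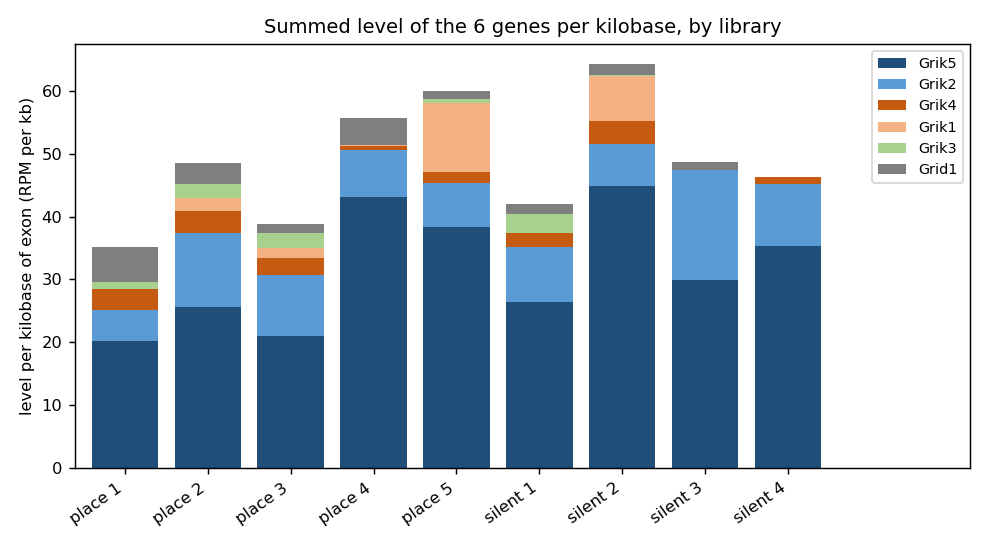
Stacked bars give the level of each of the 6 genes per kilobase of annotated exon (vertical axis, RPM per kb) in each of the 9 libraries (horizontal axis). Grik5 is the largest segment in all 9 libraries, and the Grik1 segment is wide only in place 5 and silent 2.

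Kainate receptor transcripts were a small share of ionotropic glutamate receptor transcripts in both groups. The 5 Grik genes made up 4.64 ± 1.19% (mean ± SD over 5 libraries) of the summed kainate, delta, AMPA and NMDA level per kilobase in place cells and 5.02 ± 0.875% (over 4) in silent cells, and Grid1 made up 0.321 ± 0.165% and 0.118 ± 0.0780%. The lowest kainate share was 2.60% in place replicate 1 and the highest 6.20% in silent replicate 2. The 4 AMPA genes summed to 814 ± 137 and 806 ± 17.5 RPM per kilobase, and 6 NMDA genes to 111 ± 10.1 and 121 ± 17.8. Delta here means Grid1 alone.

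Place and silent cells were compared to ask which transcripts go with the functional class. In none of the 6 genes did the groups differ beyond the spread between libraries. With limma over all 15231 genes tested, the smallest adjusted p (Benjamini-Hochberg) among the 6 was 0.861, and the smallest unadjusted p was 0.189, for Grid1. Over all genes 0 had an adjusted p under 0.05 (0%), while 763 (5.01%) had an unadjusted p under 0.05, 589 (3.87%) higher in place and 174 (1.14%) lower. Voom on the recovered reads called 5 genes, none of them a member. The groups overlapped in all 6 members, as in most genes (groups apart in 1.88%, with 1.34% higher and 0.538% lower in place). All 6 passed the filter on low values, which kept genes whose value reached 10 in 4 or more libraries. Folds are on the log2(value + 1) scale, place minus silent. Of the 6, 4 had positive folds (background 59.9% of genes) and 2 negative, with a median of 1.64 against 0.22 over all genes tested.

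Grik2, the subunit most kainate receptor channels are built around, stood in place replicates 1 to 5 at 65.2, 155, 127, 99.3 and 92.6 RPM, and in silent replicates 1 to 4 at 116, 89.3, 231 and 131 RPM. Silent replicate 3 was the highest and place replicate 1 the lowest, and the other 7 libraries of both groups covered one range. The place mean was 108 ± 34.2 RPM (SD, n = 5), against a silent mean of 142 ± 61.9 RPM (SD, n = 4). The log2 fold was -0.37 ± 0.34 (SE), with a 95% interval of -1.12 to 0.38 (limma adjusted p = 0.864). Without silent replicate 3 it was -0.14, and with the Y-linked level as a covariate -1.06 ± 0.54 (SE). That covariate nearly follows the groups, so the fold fitted beside it does not part sex from group. The spread of Grik2 within groups, 0.517 as an SD of log2 levels, was no higher than that of most genes, since only 16.0% of tested genes were at or below it (median 1.12).

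Grik5, the tight-binding partner subunit, stood at 105, 133, 109, 223 and 198 RPM in place replicates 1 to 5. In silent replicates 1 to 4 it stood at 136, 232, 155 and 182 RPM. The 3 lowest values were in place replicates 1, 2 and 3, but place replicates 4 and 5 lay above 3 of the 4 silent libraries. The means were 153 ± 53.8 and 176 ± 41.6 RPM, and the log2 fold was -0.24 ± 0.31 (SE), with a 95% interval of -0.92 to 0.44 (limma adjusted p = 0.898). With the Y-linked level as a covariate it was -0.71 ± 0.51 (SE). Its SD of log2 levels within groups was 0.432, and 10.2% of tested genes were at or below that. Per kilobase, the ratio of Grik2 to Grik5 was 0.302 ± 0.142 in place and 0.337 ± 0.182 in silent libraries. The lowest ratio was 0.150, in silent replicate 2, and the highest 0.584, in silent replicate 3.

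**Figure D2:**
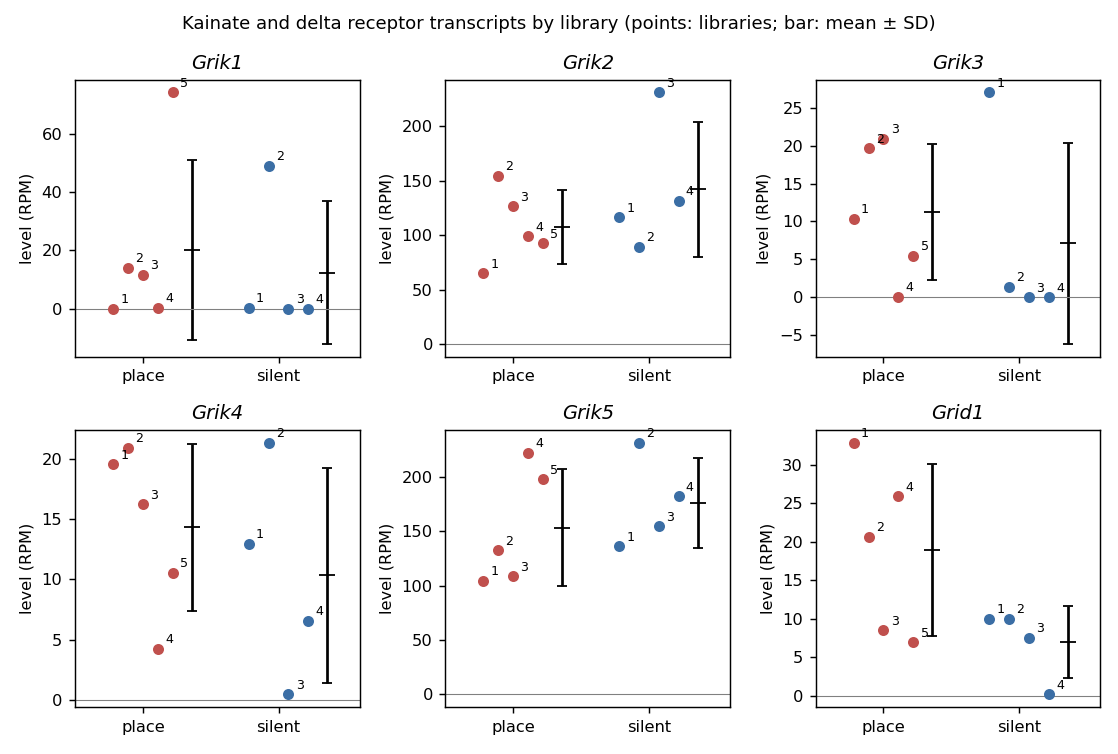
Each panel shows 1 gene, with its level in RPM (vertical axis, a separate scale per panel) in the place and silent libraries; points are libraries with their replicate number, and the black bar is the mean ± SD, which reaches below 0 where 1 library carries most of the level. The groups overlap in all 6 panels, and Grik1 and Grik3 have libraries at or near 0 in both groups.

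Grik1, which encodes a channel-forming subunit known from hippocampal interneurons, was either clearly present or nearly absent. Place replicates 1 to 5 held 0, 241, 218, 8 and 1357 recovered reads, which are 0, 14.0, 11.6, 0.373 and 74.2 RPM. Silent replicates 1 to 4 held 4, 947, 0 and 0 reads, which are 0.286, 49.0, 0 and 0 RPM. A count of 0 allows up to 0.199 RPM in place replicate 1, 0.182 in silent replicate 3 and 0.132 in silent replicate 4, taking 3 reads as the limit and covering counting error only. Thus 3 of 5 place libraries and 1 of 4 silent libraries lay above 10 RPM, and the rest below 0.4. The means were 20.0 ± 30.9 and 12.3 ± 24.4 RPM, a ratio of 1.63, and the log2 fold was 2.89 ± 2.83 (SE), with a 95% interval of -3.27 to 9.05 (limma adjusted p = 0.865). The fold was 1.71 without place replicate 5 and 5.21 without silent replicate 2. It turned to -3.25 ± 4.40 (SE) with the Y-linked level as a covariate. It fell short of the main value at 0.45 with genes detected as a covariate and at 0.80 under quantile normalization. Its SD of log2 levels within groups was 2.67, and 99.4% of tested genes were at or below it. A lack of reads in at least 1 library was common, since it was found in 42.0% of tested genes.

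Interneuron markers were present beside Grik1 in both groups. The 8 of 13 listed markers with reads in at least 4 libraries summed to 44.5 to 397 RPM in place and 70.2 to 287 in silent libraries. The sum was 312, 397 and 311 in place replicates 2, 3 and 5 and 278 in silent replicate 2, where Grik1 was present. It was also 287 in silent replicate 1 and 226 in silent replicate 3, where Grik1 was at 0.286 and 0 RPM. Gad2, a GABA-synthesizing enzyme that defines interneurons, had no reads in place replicates 1, 3 and 4. Within a library, fewer cells of a type and less RNA per cell cannot be told apart, and the part of interneurons in the Grik1 level was not tested.

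Grik3, the third channel-forming subunit, showed a similar all-or-little layout in other libraries. Place replicates 1 to 5 stood at 10.4, 19.7, 21.0, 0.0466 and 5.47 RPM, the fourth value resting on 1 read. Silent replicates 1 to 4 stood at 27.1, 1.34, 0 and 0 RPM, where the zeros again allow 0.182 and 0.132. The highest library was thus a silent one, and 4 of 5 place libraries lay above the other 3 silent ones. The means were 11.3 ± 9.02 and 7.11 ± 13.3 RPM, a ratio of 1.59, and the log2 fold was 3.42 ± 2.62 (SE), with a 95% interval of -2.29 to 9.12 (limma adjusted p = 0.861). Leaving out silent replicate 1 gave 5.45, leaving out silent replicate 3 gave 2.11, and genes detected as a covariate gave 5.52. The SD of Grik3 log2 levels within groups was 2.02, and 89.4% of tested genes were at or below it. Markers of oligodendrocyte precursors (4 of 6 summed) stood at 72.9, 17.2, 44.9, 9.14 and 0 RPM in place replicates 1 to 5 and at 126, 43.3, 0.242 and 0 RPM in silent replicates 1 to 4. Olig1, a transcription factor gene of that lineage, had no reads in place replicate 5 and silent replicates 3 and 4. It made up the whole sum for place replicate 2 and nearly all of it (44.7 RPM) for place replicate 3. Cspg4 and Vcan had no reads there, and both libraries also held the highest oligodendrocyte marker sums. Silent replicate 1 differed, since Vcan (87.4 RPM), Gpr17 (16.6) and Cspg4 (16.3) all exceeded Olig1 (5.51). The part of oligodendrocytes or their precursors in the Grik3 level was not tested.

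Grik4, the other tight-binding subunit and a gene known for its expression in CA3, had reads in all 9 libraries. Place replicates 1 to 5 stood at 19.5, 20.9, 16.2, 4.24 and 10.6 RPM. Silent replicates 1 to 4 stood at 12.9, 21.3, 0.485 and 6.59 RPM, the third value resting on 8 reads. Each group thus held high and low libraries, and 4 of 5 place libraries lay above the silent median of 9.77 RPM. The means were 14.3 ± 6.89 and 10.3 ± 8.91 RPM, and the log2 fold was 1.18 ± 1.35 (SE), with a 95% interval of -1.75 to 4.10 (limma adjusted p = 0.880). It was -0.0054 without silent replicate 3, so that library alone carried the positive fold, and 0.59 under quantile normalization. CA3 markers (7 of 9 summed) stood at 48.3, 182.9, 207, 53.0 and 157 RPM in place replicates 1 to 5 and at 23.3, 68.8, 44.5 and 113 RPM in silent replicates 1 to 4. Within that list, Cpne4 had no reads in place replicate 1 while Bok, Cdh24 and Kctd4 stood at 11.8, 14.2 and 21.9 RPM there. In silent replicate 1, Cpne4, Bok and Kctd4 had no reads and Cdh24 stood at 22.7 RPM. Kctd4 alone made up most of the sum in place replicate 3 (138 RPM) and in silent replicate 4 (66.7 RPM). The next highest markers there were Prkcd (35.4 RPM) and Nectin3 (21.4 RPM), and Cpne4 stood at 2.17 and 6.72 RPM. CA1 markers (9 of 10 summed) stood at 1010 to 1505 RPM in place and 1109 to 1350 RPM in silent libraries. The part of CA3 cells in the Grik4 level was not tested.

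Grid1 had the largest ratio of mean levels among the 6. Place replicates 1 to 5 stood at 32.8, 20.6, 8.54, 25.9 and 6.94 RPM. Silent replicates 1 to 4 stood at 10.0, 10.0, 7.57 and 0.220 RPM, the last resting on 5 reads. Place replicates 1, 2 and 4 lay above every silent library, while place replicates 3 and 5 lay among them. The means were 19.0 ± 11.1 RPM (SD, n = 5) and 6.96 ± 4.64 (SD, n = 4), a ratio of 2.72. The log2 fold was 2.11 ± 1.51 (SE), with a 95% interval of -1.18 to 5.40 (limma adjusted p = 0.861), and it was 0.81 without silent replicate 4 and 1.18 under quantile normalization. Without that library the silent mean was 9.21 ± 1.42 RPM (SD, n = 3).

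**Figure D3:**
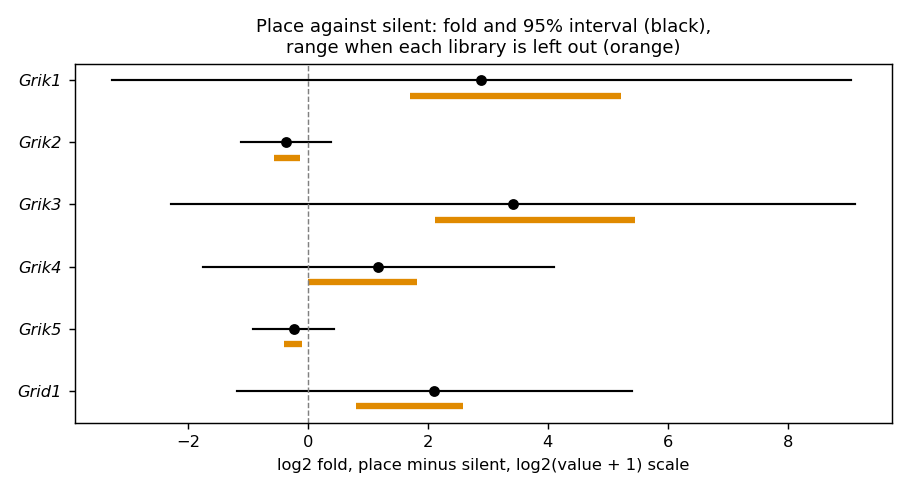
Black points give the log2 fold of each gene, place minus silent (horizontal axis, log2(value + 1) scale), with its 95% interval, and orange bars span the folds obtained when each library is left out in turn. The 6 intervals include 0, those of Grik2 and Grik5 are the narrowest, and the orange bar of Grik4 reaches 0.

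The auxiliary subunits Neto1 and Neto2, membrane proteins that slow the closing of kainate receptors, were among 18 kainate receptor partners looked at. Neto1 stood at 51.4, 41.8, 48.1, 83.6 and 51.2 RPM in place replicates 1 to 5 and at 9.37, 53.3, 58.0 and 117 RPM in silent replicates 1 to 4. Its lowest and highest values were both in silent libraries. The means were 55.2 ± 16.3 and 59.4 ± 44.1 RPM, a ratio of 0.931, while the log2 fold had the other sign, at 0.32 ± 0.64 (SE, limma adjusted p = 0.946). The fold was -0.43 without silent replicate 1. Neto2 stood at 21.0, 112, 0, 115 and 65.3 RPM in place replicates 1 to 5 and at 148, 120, 90.6 and 78.1 RPM in silent replicates 1 to 4. Place replicate 3 had no Neto2 reads, which allows up to 0.159 RPM, and all 4 silent libraries lay above 3 of the 5 place ones. The Neto2 log2 fold was -3.16 ± 2.18 (SE, limma adjusted p = 0.861), and -0.74 without place replicate 3.

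Of the 18 kainate receptor partners, which besides the Neto genes include C1q-like ligands, scaffolds, editing enzymes and protein-modifying factors, 18 were tested and 0 passed in either direction. Their folds were positive in 16 and negative in 2, where 59.9% of all genes tested had positive folds. The median was 0.58 against 0.22 over all genes, and 0 had an unadjusted p under 0.05. Whether the partners lean further than genes at large was not tested. The smallest p belonged to Kif17, a kinesin motor that carries kainate receptor subunits, whose mean was 48.6 ± 9.61 RPM over place libraries and 27.4 ± 25.5 over silent ones, a log2 fold of 2.11 ± 1.19 (SE, limma adjusted p = 0.861). Its silent libraries were split, with 40.7 and 56.1 RPM in replicates 1 and 2 and 12.2 and 0.527 in replicates 3 and 4, and the fold was 0.66 without silent replicate 4. Cul3, a ubiquitin ligase scaffold, stood at 198 ± 91.9 and 122 ± 70.3 RPM (log2 fold 0.72 ± 0.44 SE, limma adjusted p = 0.861), and 0.43 without silent replicate 3.

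Of 11 delta receptor partners, 10 were in the table and 7 were tested. They had 5 positive and 2 negative folds (background 59.9% of genes positive), with a median of 0.66. In either direction 0 passed, and 0 had an unadjusted p under 0.05. Gopc, a Golgi-associated PDZ protein, stood at 88.5 ± 38.5 and 57.1 ± 39.3 RPM, with 0.132 in silent replicate 4, and its log2 fold of 2.35 ± 1.58 (SE, limma adjusted p = 0.861) was 0.11 without that library. Ptpn4, a tyrosine phosphatase, stood at 88.5 ± 12.3 and 72.1 ± 43.0 RPM (log2 fold 0.66 ± 0.58 SE, limma adjusted p = 0.864), and its fold was -0.04 without silent replicate 4.

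**Figure D4:**
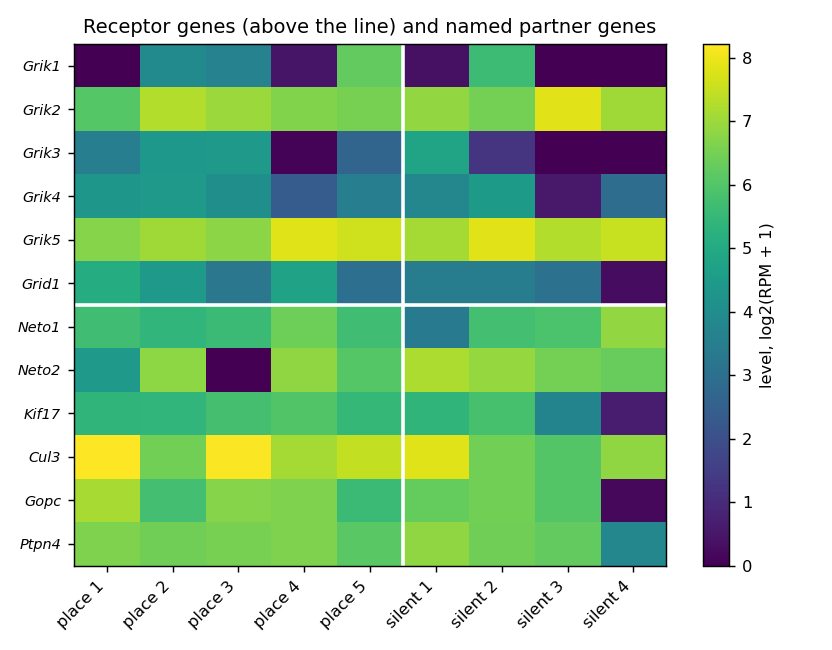
Colour gives the level as log2(RPM + 1) of the 6 receptor genes, above the horizontal white line, and of the 6 partner genes named in the text, in the 9 libraries; the vertical line parts place from silent libraries, and levels are not corrected for gene length. Dark cells at or near 0 recur in single libraries of both groups, among them Neto2 in place 3 and Gopc in silent 4.

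The genes whose levels followed each member most closely were found by the root-mean-square difference of centred log2(RPM + 1) over the 9 libraries, a description of these libraries that shares their scaling and depth. The closest gene differed by 0.131 from Grik5 (Adgrb1) and by 0.222 from Grik2 (Sec23a), followed by Matk (0.152) and Ptov1 (0.162) for Grik5 and by Dip2c (0.233) for Grik2. This difference grows with a gene's own spread, so it ranks genes for 1 member and is not comparable between members. For Grik4 they were Plekhm3 (0.314), Hmg20b (0.518) and Unc5c (0.531), and for Grid1 Abhd2 (0.445), Tsen54 (0.532) and Zfp592 (0.561). For Grik3 they were Csf3r (0.688), Litaf (0.715) and Serpina3n (0.858), and for Grik1 Coro6 (0.976), St3gal6 (1.02) and Dsp (1.08). Dsp is also on the dentate granule list, and it had reads in the 4 libraries where Grik1 exceeded 10 RPM, at 12.0, 23.0 and 7.22 RPM in place replicates 2, 3 and 5 and 22.3 RPM in silent replicate 2. It had none in the other 5 libraries, of which Grik1 had 8 reads in place replicate 4 and 4 in silent replicate 1. Dsp was picked for its closeness to Grik1 in these libraries, so this match was fixed by the choice. Dentate markers as a whole (8 of 8 summed) stood at 73.9, 450, 61.1 and 116 RPM in those 4 libraries and at 16.9 to 145 in the other 5. The list did not share 1 layout. In silent replicates 1 and 4, Prox1 stood at 67.7 and 27.9 RPM and Stxbp6 at 43.1 and 54.3 RPM. Glis3 stood at 0.143 and 0 RPM there. The part of dentate cells in the Grik1 level was not tested.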

How the data were processed

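RNA from hippocampal nuclei was measured in 5 place and 4 silent libraries, grouped by their titles and numbered in accession order. The authors deposited 1 table of normalized read values, a signal per gene and library. STAR, HTSeq and the GRCm39 build are named in the submitters' processing notes. Not given in the sources used here are the annotation, strand setting and normalization method. In the deposited signal, each gene's values were whole multiples, within 0.05, of 1 number shared by the 9 libraries, in 15230 of 15231 genes tested (99.99%). Dividing by it gave reads, up to a common divisor. The largest number that fitted was taken, so the reads of the 6 receptor genes had no common divisor above 1 by construction. A recovered read could thus stand for more than 1 read. The planned negative binomial fits on these reads were left out, and limma's voom was run on them. A column naming no gene (0.177% to 0.304% of values) was left out.

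Values were divided by a trimmed mean of M-values factor across libraries (30% and 5% trims), and log2(value + 1) was fitted with limma 3.58.1 in R 4.3.3, with an intensity trend, no covariate and Benjamini-Hochberg adjustment over 15231 genes at 0.05. RPM are recovered reads, of genes with reads in at least 4 libraries, divided by the same factors. Exon lengths came from GENCODE M21 (GRCm38), not the files' build, so no coordinates are given. Of the 6 genes, 4 overlap annotated noncoding or pseudogene entries, 14 in all, which without a stated strand setting could share reads.

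The members, partner lists, marker lists and naming rule were chosen with earlier results of these data known. The rule named the 6 genes, the Neto genes, the 3 further partners per list with the smallest p, and the 3 closest genes per member. Some genes that the rule picked are not reported here.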

Additional observations from a re-analysis of the deposited data

Results flagged for a closer look

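Within groups, 4 of 24 sets of levels (12 genes in 2 groups) held a library further from the others than Dixon's 95% criterion allows. Each flagged library was the highest of its group. Chance alone would give about 1 in 20 for normally distributed levels. These RPM were not log-transformed and include zeros, so that rate cannot be set against the 4 of 24. Grik1 stood at 74.2 RPM in place replicate 5, where the next place library was at 14.0. Grik1 stood at 49.0 RPM in silent replicate 2, where the next silent library was at 0.286. Grik3 stood at 27.1 RPM in silent replicate 1, where the next was at 1.34. Neto1 stood at 83.6 RPM in place replicate 4, where the next was at 51.4.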

How the results depend on the processing

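Over 22 alternatives (scaling, pseudocount, filter, test, covariates and libraries left out), the 6 receptor genes kept direction and stayed short of the threshold in 130 of 132 results, with adjusted p from 0.682 upwards. The exceptions were Grik1, at -3.25 once Y-linked RNA was a covariate, and Grik4, at -0.0054 without silent replicate 3, and the cause was not tested. With single libraries left out, log2 folds ran from 1.71 to 5.21 for Grik1, -0.56 to -0.14 for Grik2, 2.11 to 5.45 for Grik3, -0.0054 to 1.83 for Grik4, -0.40 to -0.10 for Grik5 and 0.81 to 2.58 for Grid1. Other alternatives also moved members by over 1.5 times: with the Y-linked covariate Grik2 was at -1.06, Grik5 at -0.71 and Grik4 at 1.83, with genes detected as a covariate Grik1 at 0.45, Grik2 at -0.59, Grik3 at 5.52 and Grik5 at -0.62, and under quantile normalization Grik1 at 0.80, Grik4 at 0.59 and Grid1 at 1.18. A pseudocount of 10 gave 1.82 for Grik1 and 2.15 for Grik3, and array weights gave -0.15 for Grik5. Without place replicate 3 and silent replicates 1 and 4, Grik1 was at 0.55, Grik2 at -0.57, Grik4 at 1.81 and Grid1 at 1.08. The number of genes past the threshold, 0, became 5 with voom (no receptor gene among them), 220 with the Y-linked covariate, and 0 to 1 with single libraries left out (1, Eif2s3y, without place replicate 1). The Y-linked level nearly follows the groups, so folds fitted beside it had larger errors and do not part sex from group. Their SE was 4.40 for Grik1, 0.54 for Grik2 and 0.51 for Grik5, against 2.83, 0.34 and 0.31 in the main fit. Under quantile normalization the median fold over genes went from 0.22 to 0.01. Of the named partners' folds, 4 of 132 changed sign. They were Neto1 with genes detected as a covariate (-0.20), without silent replicate 1 (-0.43) and without place replicate 3 and silent replicates 1 and 4 (-0.028) and Ptpn4 without silent replicate 4 (-0.041). With single libraries left out, folds ran from -0.43 to 0.80 for Neto1 and -0.041 to 0.99 for Ptpn4. The planned edgeR and DESeq2 fits were not run. No paired analysis was possible because the labels give the groups no shared replicate numbers. A level that rests on 1 to 8 reads carries a large counting error. Such counts were also found in the libraries with the most recovered reads, place replicate 4 (Grik1 8, Grik3 1) and silent replicate 4 (Grid1 5). Others were in silent replicate 1, which had the fewest reads (Grik1 4), and in silent replicate 3 (Grik4 8). The cause of these low counts was not tested.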
